A study of Mus musculus with 2 samples.

Results

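The amino acid transporter genes of the Slc1, Slc3, Slc6, Slc7, Slc36, Slc38 and Slc43 families were compared between the livers of Yap+/- and Yap+/+ mice. Membership went by gene symbol alone: every probe set annotated with exactly 1 symbol of the form Slc, family number, "a" and member number was taken, except those of Slc1a2 and Slc7a11, and a gene was represented by its brightest probe set, by the mean of both arrays. This gave 111 probe sets of 56 genes, out of 18193 genes on the array. Symbols with a further letter, such as Slc6a20a and Slc6a20b, are not covered by that form.

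Per the labels, the Yap+/- mice carry 1 working copy of Yap, the Yap+/+ mice carry both, and all were untreated animals on a C57BL/6 background, with livers taken on postnatal day 30. The label does not say in which cell types the allele is inactive, and the sources used here give neither sex nor feeding before sacrifice. Livers of 5 mice were pooled for each genotype and each pool was read on 1 Affymetrix array, so the 5 mice of a pool are 1 sample. With 1 array per genotype no difference could be tested, and every value below is a single measurement. YAP, encoded by Yap1, is the growth-promoting co-activator that the Hippo kinases hold in check.

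Amino acid transporters carry the building blocks of protein across membranes. In the liver, system A and system N carriers of the Slc38 family bring in alanine and glutamine with sodium, cationic carriers of the Slc7 family bring in arginine and lysine, and carriers of the Slc43 family pass branched-chain and aromatic amino acids. Some members of Slc7 work only as light subunits that reach the cell surface bound to a heavy subunit, Slc3a1 or Slc3a2. Some transporters, mainly of Slc36 and Slc38, sit on the lysosome, and some of these report amino acid supply to the growth kinase complex mTORC1. Several transporters of these families are known targets of ATF4, the transcription factor of the response to amino acid shortage. The Slc6 family also carries substances that do not enter protein, among them taurine, betaine and creatine.

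On their brightest probe sets, the genes taken from these families read almost alike in both genotypes, with 1 exception, Slc3a1. A gene was called measured where its mean log2 value over both arrays was at least 6, which held for 24 of the 56 genes and for 9299 genes in all. Of these 24, 1 was at least 1.5-fold higher in Yap+/- liver, and 0 were at least 1.5-fold lower. Over all measured genes, 0.699% were at least 1.5-fold higher and 0.645% at least 1.5-fold lower, so 1 gene in 24 is a small number to set beside those shares. At 2-fold, 0 transporters were counted in either direction, where 0.0968% of all measured genes were higher and 0.226% lower. Differences smaller than 0.32 on the log2 scale were found for 22 of the 24 transporters (91.7%) and for 93.0% of all measured genes. The median difference, Yap+/- minus Yap+/+ on the log2 scale, was 0.011 over the transporters and 0.00 over all measured genes. As a yardstick, where a gene had 2 measured probe sets, their differences deviated from each other with a robust SD of 0.17 (3406 genes), a figure for noise inside 1 array pair that says nothing of how mice vary.

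**Figure D1:**
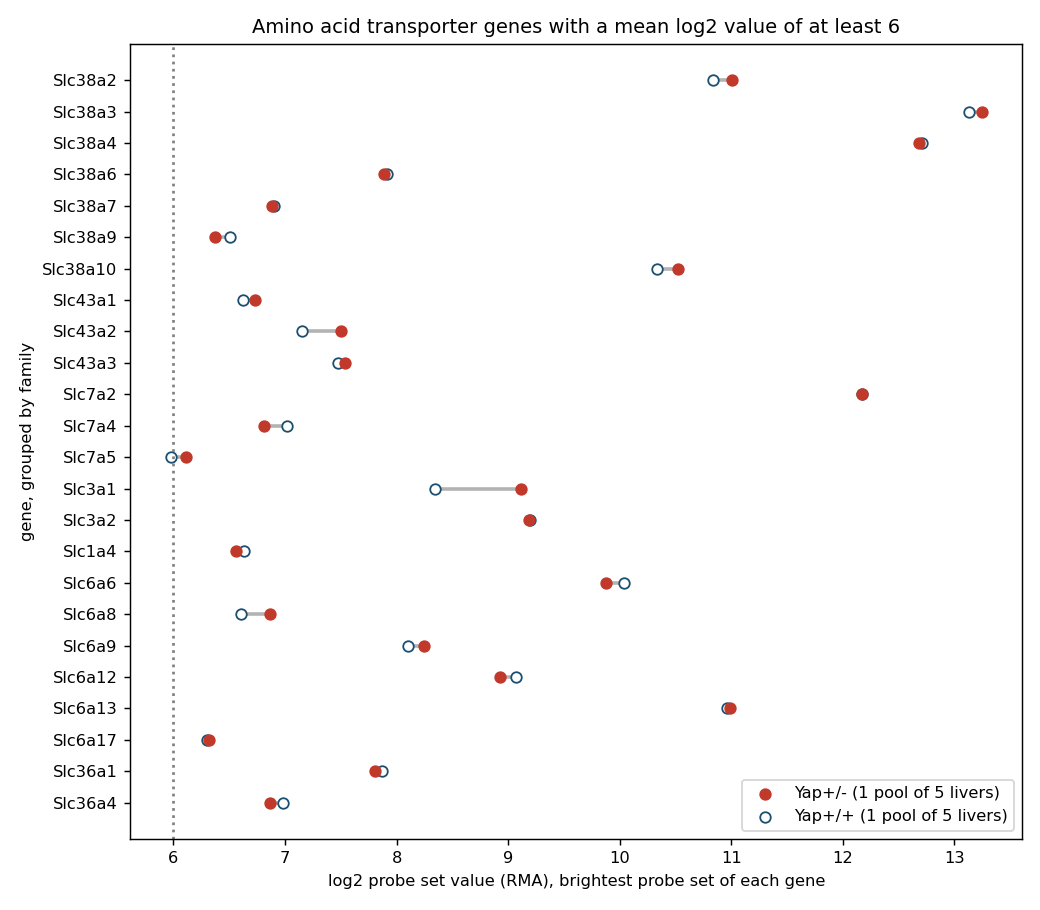
Log2 probe set values (horizontal axis) of the 24 measured transporter genes, grouped by family (vertical axis), in the Yap+/- pool (filled red) and the Yap+/+ pool (open blue), with the dotted line at the minimum mean of 6. The points of nearly every gene lie close together, and the widest gap is that of Slc3a1, at 9.12 in Yap+/- and 8.35 in Yap+/+. Values of different genes come from different probes and do not rank the genes.

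Slc3a1 encodes rBAT, the heavy subunit that brings the cystine and dibasic amino acid exchanger of kidney and intestine to the cell surface. It read 9.12 in Yap+/- liver and 8.35 in Yap+/+ liver, a log2 difference of 0.77 or 1.71-fold. Counting Slc3a1 itself, 26 of the 9299 measured genes had a difference at least as high. A single probe set stands for the gene, so it has no second reading on these arrays. Around its level the differences of measured genes had a robust SD of 0.15.

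The light subunits that pair with rBAT gave no matching signal. Slc7a9, which encodes the light subunit b0,+AT of the kidney exchanger, read 3.79 in Yap+/- and 3.86 in Yap+/+, and Slc7a13, another known partner of rBAT, read 4.60 in Yap+/- and 4.51 in Yap+/+. Both lay below the median of all probe sets, which was 4.92 in Yap+/- and 4.93 in Yap+/+, and neither is shown to be above background. Markers of kidney, an organ well known for rBAT, were also low: 0 of 4 (Slc34a1, Lrp2, Umod and Kap) reached the minimum of 6 in the mean. Their values ran between 3.12 and 5.46 in Yap+/- and between 3.42 and 5.34 in Yap+/+. The part of kidney tissue in the Slc3a1 values was not tested. The hepatocyte markers differed little, with 0 of 7 past 1.5-fold and a median of 0.025. The widest were Hnf4a (0.20) and Fgb (0.06) on the higher side and Tat (-0.22) and Apoa1 (-0.01) on the lower. Neither gene next to Slc3a1 on chromosome 17 differed as much. Prepl, whose annotated span overlaps that of Slc3a1, read 6.97 in Yap+/- and 6.98 in Yap+/+, and Ppm1b, on the other side, read 11.3 in Yap+/- and 11.4 in Yap+/+.

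Because Slc3a1 is the gene on which the comparison turns, the 250 bases before its annotated start are shown (RefSeq, GRCm38.p6, chr17:85028097-85028346, plus strand), with a match to CAAAGTCCA, the core recognised by the hepatocyte nuclear receptor HNF4A, in capitals.
Slc3a1: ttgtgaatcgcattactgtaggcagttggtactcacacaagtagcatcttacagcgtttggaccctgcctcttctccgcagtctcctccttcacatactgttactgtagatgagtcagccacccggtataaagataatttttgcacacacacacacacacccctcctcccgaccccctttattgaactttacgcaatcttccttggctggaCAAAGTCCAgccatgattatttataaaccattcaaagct
The match begins 39 bases before the start and was looked for after this sequence had been read. Searched on both strands of windows of 300 bases (250 before and 50 after each start), CAAAGTCCA was held by 1 of the 39 transporter genes with a window, Slc3a1, and by 0.555% of all 27025 genes with one. Because the letters were chosen with the Slc3a1 sequence in view, its match was known in advance. These shares therefore do not measure how unusual the match is. Such a match is a description of letters, not a binding site. Hnf4a itself read 12.3 in Yap+/- and 12.1 in Yap+/+, and its part in the Slc3a1 values was not tested.

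Slc3a2, the other heavy subunit, known as 4F2hc or CD98, read 9.19 in Yap+/- and 9.20 in Yap+/+. Its light subunit Slc7a5, or LAT1, which exchanges large neutral amino acids, read 6.11 in Yap+/- and 5.97 in Yap+/+, just above the minimum in the mean. These readings differed by -0.01 for Slc3a2 and by 0.14 for Slc7a5, both inside the disagreement between probe sets. Just below the minimum lay Slc7a7, the light subunit y+LAT1, at 6.06 in Yap+/- and 5.68 in Yap+/+, while its second probe set gave 5.38 in Yap+/- and 5.33 in Yap+/+. Slc7a7 is also expressed by macrophages. All 8 of the Kupffer cell and macrophage markers read higher in Yap+/-, led by Marco (0.62, the only one past 1.5-fold) and Cd68 (0.48), with a median of 0.39 and a summed linear value of 9723 in Yap+/- and 7644 in Yap+/+. All 8 were measured on both arrays, and their part in the Slc7a7 values was not tested. In whole liver, a change in the number of cells of a type and a change in RNA per cell cannot be told apart. The remaining 7 light subunits, Slc7a6, Slc7a8, Slc7a9, Slc7a10, Slc7a12, Slc7a13 and Slc7a15, were below the minimum.

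**Figure D2:**
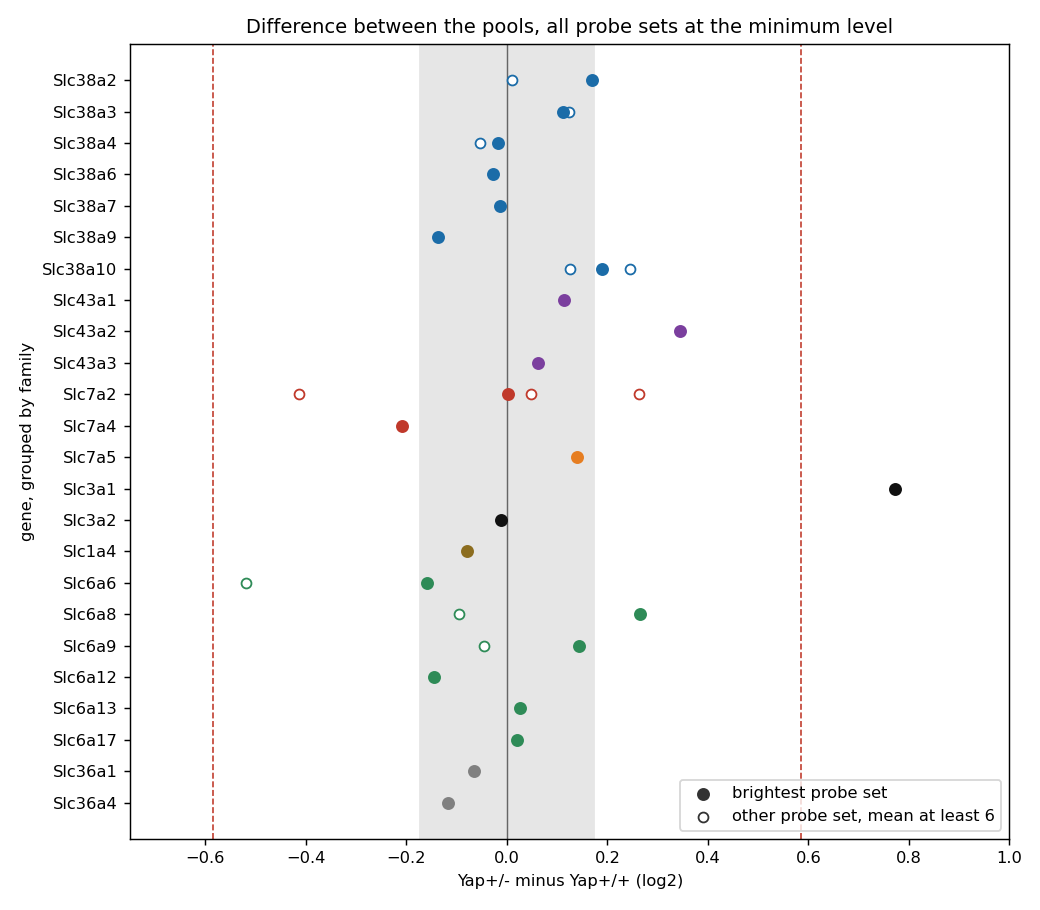
Difference between the pools, Yap+/- minus Yap+/+ in log2 units (horizontal axis), for each measured transporter gene (vertical axis), with filled points for the brightest probe set and open points for other probe sets whose mean is at least 6. The grey band spans the robust SD of disagreement between probe sets of a gene, 0.17 to each side, and the dashed lines mark 1.5-fold. Slc3a1 at 0.77 is the only filled or open point beyond the dashed lines, and the open points of Slc7a2, Slc6a6 and Slc6a8 lie well away from their filled ones.

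The 7 measured genes of the sodium-coupled Slc38 family, which include carriers of the hepatocyte surface and of lysosomes, differed by 0.19 or less on the log2 scale. Slc38a3, the system N carrier SNAT3 that moves glutamine and histidine into and out of hepatocytes, read 13.2 in Yap+/- and 13.1 in Yap+/+, and its 2 probe sets gave nearly the same difference, 0.11 and 0.12. Slc38a4, the system A carrier SNAT4 of liver, which is expressed from the paternal allele in several mouse tissues, read 12.7 in both, with differences of -0.02 and -0.05 on its 2 probe sets. For both genes the probe sets thus gave nearly the same answer, inside the disagreement of 0.17. Slc38a2, the amino-acid-regulated carrier SNAT2, read 11.0 in Yap+/- and 10.8 in Yap+/+, a difference of 0.17. Its second measured probe set differed by 0.01 and a dim one by -0.40, and the mean over all of them was -0.08, so no direction is given for Slc38a2.

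Slc38a10, a little-studied relative, had several readings. Its brightest probe set gave 10.5 in Yap+/- and 10.3 in Yap+/+, and its 3 measured probe sets differed by 0.19, 0.13 and 0.25, all higher in Yap+/-, while its dim ones ran between -0.21 and 0.02. The other measured Slc38 genes were 3 with small differences, Slc38a6 at 7.88 in Yap+/- and 7.91 in Yap+/+, the lysosomal glutamine exporter Slc38a7 at 6.89 in Yap+/- and 6.90 in Yap+/+, and Slc38a9 at 6.37 in Yap+/- and 6.51 in Yap+/+. The median difference of the 7 measured Slc38 genes was -0.01. Slc38a1 and Slc38a5 were below the minimum.

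The 3 Slc43 genes were all measured and all read higher in Yap+/-, as did 4542 of the 9299 measured genes. Slc43a2, which encodes LAT4, a carrier of branched-chain and aromatic amino acids and methionine, read 7.50 in Yap+/- and 7.16 in Yap+/+, 1.27-fold higher. Together with Slc3a1 it made 2 transporters at least 0.32 higher on the log2 scale, where 3.86% of all measured genes were that much higher. On the lower side 0 transporters differed by that much on the brightest probe set, against 3.18% of all measured genes. Other measured probe sets of Slc6a6 (-0.52) and Slc7a2 (-0.41) were lower by more than that. The next probe set of Slc43a2, dimmer than the minimum, gave 5.78 in Yap+/- and 5.66 in Yap+/+. Slc43a1, the LAT3 carrier of liver and pancreas, read 6.73 in Yap+/- and 6.62 in Yap+/+. Slc43a3, known as a purine carrier rather than an amino acid carrier, read 7.54 in Yap+/- and 7.48 in Yap+/+. The differences of Slc43a1 (0.11) and Slc43a3 (0.06) are smaller than the disagreement between probe sets, 0.17, so no common direction is given for the family.

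Of the cationic carriers, Slc7a2 is the arginine and lysine carrier CAT2 of hepatocytes. Its brightest probe set gave 12.2 in both pools and differed by 0.0016. Its other measured probe sets did not run one way, since they read 9.32, 7.80 and 5.86 in Yap+/- against 9.06, 7.75 and 6.27 in Yap+/+, in order of brightness. Those differences, 0.26, 0.05 and -0.41, run in both directions, and Slc7a2 is known to be spliced into a hepatic and a lymphoid form. The sources used here do not say which form each probe set reads. Slc7a4, a relative with no established substrate, read 6.81 in Yap+/- and 7.02 in Yap+/+, and at -0.21 had the most negative difference of the 24, 1.15-fold lower. Its other probe sets, dimmer than the minimum, went the other way, by 0.08 and 0.03. The ubiquitous carrier Slc7a1, or CAT1, was below the minimum at 5.16 in Yap+/- and 5.50 in Yap+/+, as were Slc7a3 and Slc7a14.

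In the Slc1 family, with Slc1a2 left out by the rule, 1 of 6 genes was measured. Slc1a4, the neutral amino acid exchanger ASCT1, read 6.56 in Yap+/- and 6.64 in Yap+/+. Its other probe sets, dimmer than the minimum, differed by 0.04 and -0.26. Slc1a5, the glutamine exchanger ASCT2, lay just under the minimum at 5.76 in Yap+/- and 5.61 in Yap+/+. The glutamate carriers Slc1a1, Slc1a3, Slc1a6 and Slc1a7 were also below it, and Slc1a3 had the largest positive difference among the unmeasured genes, 0.39, on a probe set reading 4.89 in Yap+/- and 4.50 in Yap+/+.

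The measured Slc6 genes were 6 of 18. Slc6a6, the taurine carrier, which supplies hepatocytes with taurine for bile salt conjugation and volume regulation, read 9.88 in Yap+/- and 10.0 in Yap+/+. Its second probe set gave 8.24 in Yap+/- and 8.76 in Yap+/+, a difference of -0.52 or 1.43-fold lower, against -0.16 on the first. Both readings were lower in Yap+/-, but they disagree about the size by 0.36. In all, 8 transporters had at least 2 measured probe sets, and the 2 brightest differed in the same direction for 6 of them. Those 6 include Slc7a2, at 0.0016 on its brightest probe set, and Slc38a2, at 0.01 on its second. The same count was not made over all genes.

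Slc6a12 and Slc6a13 lie next to each other on chromosome 6 and encode the betaine and GABA carrier BGT1 and the GABA and taurine carrier GAT2 of hepatocytes. Slc6a12 read 8.93 in Yap+/- and 9.07 in Yap+/+, and Slc6a13 read 11.0 in both, with differences of -0.14 and 0.03. The pair therefore showed no common shift beyond probe set noise. Slc6a8, the creatine carrier, had 6.87 in Yap+/- and 6.60 in Yap+/+ on its brighter probe set, whereas the other read 6.02 in Yap+/- and 6.12 in Yap+/+, so its direction is not settled. The same holds for Slc6a9, the glycine carrier GlyT1, at 8.24 in Yap+/- and 8.10 in Yap+/+ on the brighter probe set and 6.31 in Yap+/- and 6.35 in Yap+/+ on the other. Slc6a17, a vesicular carrier best known from neurons, read 6.32 in Yap+/- and 6.30 in Yap+/+.

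Of 5 members known from lysosomes 4 were measured, Slc36a1, Slc36a4, Slc38a7 and Slc38a9, with 0 past 1.5-fold. Their brightest probe sets had a median difference of -0.09, and all 4 differences were negative, as were those of 4610 of the 9299 measured genes. Slc36a1, the proton-coupled carrier PAT1 that exports small amino acids from lysosomes, read 7.80 in Yap+/- and 7.87 in Yap+/+. Slc36a4, the related PAT4, read 6.87 in Yap+/- and 6.98 in Yap+/+. The largest of the 4 was Slc38a9, the lysosomal arginine sensor of mTORC1, at -0.14. Its 6 dim probe sets ran in both directions, between -0.28 and 0.34, and all 4 differences are smaller than the disagreement between probe sets, so no direction is given for these carriers.

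**Figure D3:**
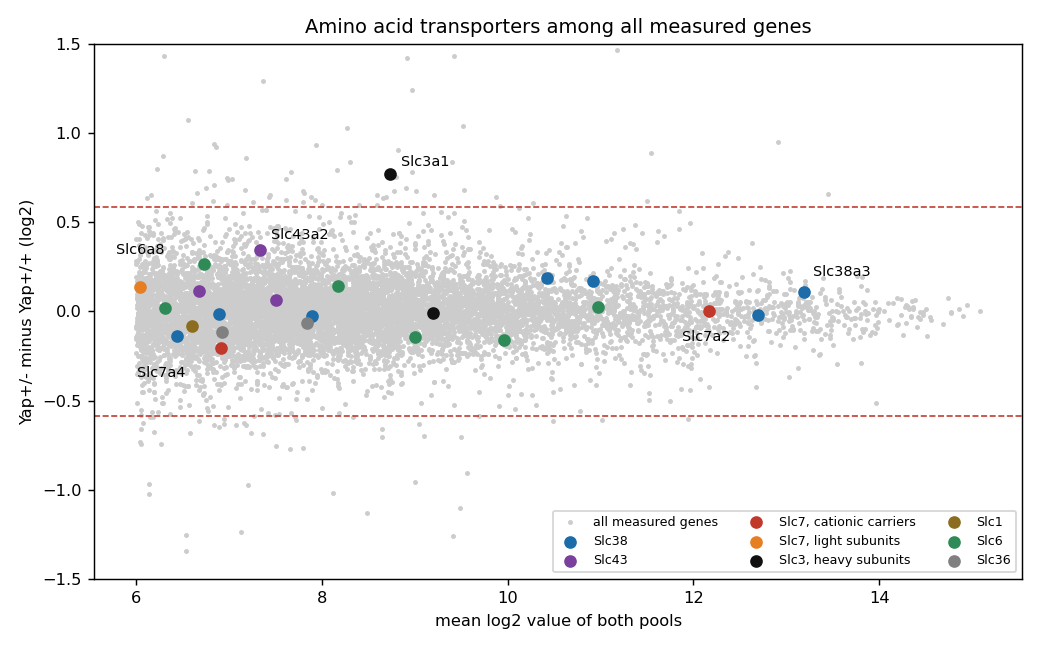
Difference between the pools (Yap+/- minus Yap+/+, log2, vertical axis) against the mean log2 value of both pools (horizontal axis) for all measured genes (grey) and the 24 measured transporters, coloured by family, with dashed lines at 1.5-fold. Slc3a1 lies above the upper line, and the other 23 transporters lie within the grey cloud. Genes with a difference beyond 1.5 on either side, 13 in number, are outside the axis.

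The remaining 32 genes were below the minimum, and 23 of them read under the median of all probe sets on both arrays. Their values ran between 2.90 and 6.06 in Yap+/- and between 3.00 and 5.68 in Yap+/+, and their differences between -0.34 (Slc7a1) and 0.39 (Slc1a3), with 0 past 1.5-fold. They include carriers best known from other tissues: the monoamine carriers Slc6a2, Slc6a3 and Slc6a4 of neurons, the glycine carrier Slc6a5, the proline carrier Slc6a7, and the kidney and gut carriers Slc6a18 and Slc6a19. Slc36a2 and Slc36a3, which lie beside Slc36a1 on chromosome 11, were also below the minimum. At such levels a difference between arrays cannot be read as a difference in transcript.

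Several of these transporters are known ATF4 targets, and genes of that response had a higher median in Yap+/-. Of 17 measured genes of the GCN2 and ATF4 response, 3 were at least 1.5-fold higher in Yap+/- and 1 at least 1.5-fold lower, beside 0.699% and 0.645% of all measured genes. Differences were positive for 13 of the 17 and for 4542 of all 9299, and the median of the 17 was 0.15. The list was chosen with earlier results of these data known, so these counts describe it and test nothing. Asns, asparagine synthetase, read 7.10 in Yap+/- and 6.02 in Yap+/+. Its mean of 6.56 left it out at a minimum of 7, where 2 genes of the list were at least 1.5-fold higher. Ddit3, the factor CHOP, read 8.06 in Yap+/- and 7.28 in Yap+/+. On the lower side were Ddit4, an mTORC1 inhibitor, at 7.41 in Yap+/- and 8.02 in Yap+/+, and Cth, cystathionine gamma-lyase, at 13.0 in Yap+/- and 13.1 in Yap+/+. Atf4 itself read 10.1 in Yap+/- and 10.2 in Yap+/+.

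The known ATF4 targets among the transporters were not past the same threshold. Of 8 such genes 5 were measured, with 0 past 1.5-fold. On the brightest probe sets their median difference was 0.14, in a range between -0.08 for Slc1a4 and 0.17 for Slc38a2, with Slc3a2, Slc7a5 and Slc6a9 between them. The signs of Slc38a2, Slc6a9 and Slc1a4 depend on the probe set, so no count by direction is given. The 3 that were not measured were Slc1a5, Slc7a1 and Slc7a3. The difference between the 2 lists was not tested, and both come from the same pair of arrays.

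The letters of the core shared by ATF4 and C/EBP factors, TGATGNAA, were looked for on both strands of the windows around annotated starts. They were held by 3 of the 39 transporter genes with a window, Slc1a4, Slc7a7 and Slc6a21, and by 4.51% of all 27025 genes with one. Some genes have several windows, and by window the letters were held by 4 of 60 for transporters and by 3.97% of all 32851. The sites of the 2 genes at or just under the measured level are shown, 30 bases each from GRCm38.p6 in RefSeq, minus strand of the chromosome, with the match in capitals (for Slc1a4 the reverse complement of the core).
Slc1a4, chr11:20332699-20332728: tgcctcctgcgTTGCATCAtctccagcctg
Slc7a7, chr14:54417927-54417956: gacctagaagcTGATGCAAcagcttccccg
Slc7a7, chr14:54418067-54418096: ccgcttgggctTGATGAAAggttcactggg
The Slc1a4 match and the first Slc7a7 match lie across an annotated start. Of the 3 genes with these letters Slc1a4 alone was measured, at a difference of -0.08 on its brightest probe set.

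**Figure D4:**
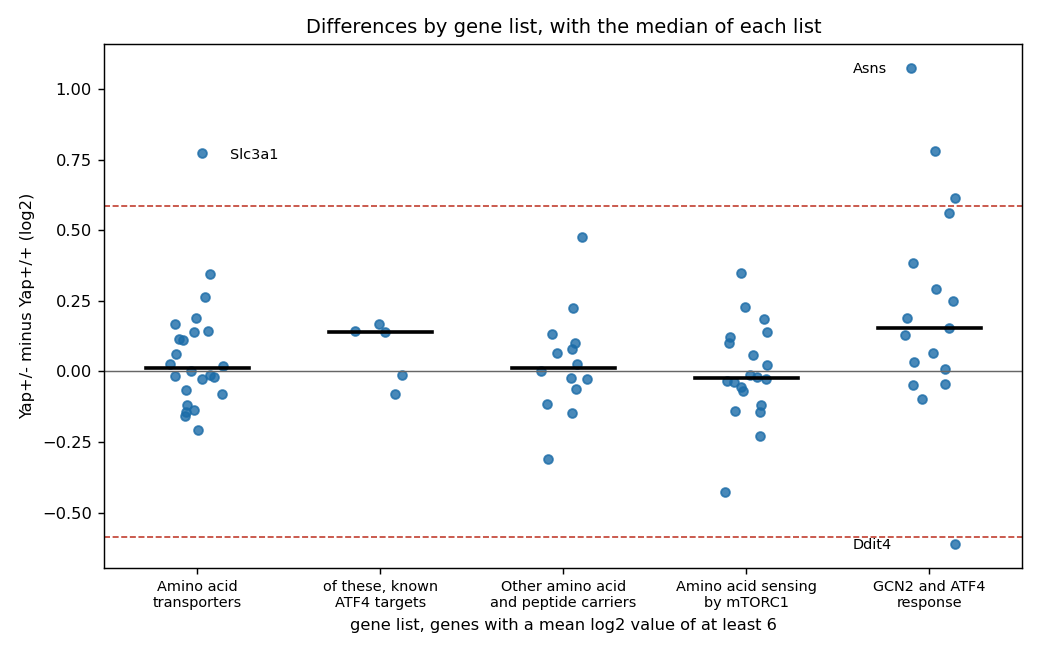
Difference between the pools (Yap+/- minus Yap+/+, log2, vertical axis) of each measured gene in 5 lists (horizontal axis), with black bars for list medians and dashed lines at 1.5-fold. The transporters (median 0.011), other carriers (0.014) and mTORC1 sensing genes (-0.02) centre near 0. The 5 transporters known as ATF4 targets (0.14) and the GCN2 and ATF4 response (0.15, led by Asns) had higher medians. The 0.14 is the value of Slc7a5 and is smaller than the disagreement between probe sets of a gene, 0.17. No common direction is given for these 5 transporters.

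Amino acid carriers outside these families and the sensing genes of mTORC1 spread about as all measured genes did, with differences smaller than 0.32 for 92.9% of the carriers, 90.0% of the sensing genes and 93.0% of all measured genes. Of 14 measured other amino acid and peptide carriers, 0 were past 1.5-fold and the median was 0.014. Slc32a1, a vesicular GABA and glycine carrier, read 6.37 in Yap+/- and 5.89 in Yap+/+, and Ctns, the lysosomal cystine exporter, read 6.50 in Yap+/- and 6.27 in Yap+/+. On the lower side were Slc25a44, the mitochondrial branched-chain amino acid carrier, at 7.60 in Yap+/- and 7.91 in Yap+/+, and Slc66a1, a lysosomal cationic amino acid exporter, at 8.33 in Yap+/- and 8.48 in Yap+/+.

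Of 20 measured mTORC1 sensing genes, 0 were past 1.5-fold and the median was -0.02. Flcn, a regulator of the Rag GTPases, read 9.77 in Yap+/- and 9.42 in Yap+/+, and its partner Fnip1 read 9.14 in Yap+/- and 8.91 in Yap+/+. Rraga, a Rag GTPase itself, had 7.97 in Yap+/- and 8.40 in Yap+/+, and the leucyl-tRNA synthetase gene Lars1 read 8.51 in Yap+/- and 8.73 in Yap+/+.

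Values of the arrays as a whole bear on all of these readings. Yap1, the targeted gene, had 9.24 in Yap+/- and 9.40 in Yap+/+ on its brighter probe set and 5.77 in Yap+/- and 6.01 in Yap+/+ on the other, and the sources used here do not say whether either lies in the deleted part. The 3-prime over 5-prime excess of the array's control transcripts, a sign of RNA or labelling quality, was larger in Yap+/-: it differed by 0.22 (log2) for Gapdh, 0.21 for pyruvate carboxylase and 0.20 for beta-actin, and the part of this in the transporter values was not tested. Among markers of other cell types, sinusoidal endothelium had 5 of 6 higher in Yap+/- with a median of 0.20, between Fcgr2b (0.36) and Clec4g (0.29) on the higher side and Kdr (-0.03) on the lower. Stellate cell and smooth muscle markers had 2 of 6 at least 1.5-fold lower, Acta2 (-1.13) and Tagln (-0.75), and 2 higher, Pdgfrb (0.31) and Col1a1 (0.03), with a median of -0.24. Of the biliary, lymphocyte, neutrophil, erythroid, exocrine pancreas and neuron lists 1 marker each was measured, and some of these differed far more than most transporters. Biliary Muc1 stood at 5.51 in Yap+/- and 7.19 in Yap+/+, a difference of -1.67. Neutrophil S100a9 stood at 7.02 in Yap+/- and 5.58 in Yap+/+, a difference of 1.43, and lymphocyte Ccl5 at 7.14 in Yap+/- and 6.52 in Yap+/+, a difference of 0.62. Markers of these lists below the minimum did not all follow. Biliary ones ran between -1.90 (Krt19) and 0.26 (Sox9), and neutrophil S100a8 differed by 1.59 and Mpo by -0.10. The other lymphocyte markers ran between 0.08 (Cd79a) and 0.22 (Nkg7). The measured markers of the other 3 lists differed by 0.10 (Alas2, erythroid), 0.04 (Cela1, pancreas) and 0.25 (Syt1, neuron). Other pancreas markers, below the minimum in the mean, read lower in Yap+/- by more than 1.5-fold. Ctrb1 read 5.13 in Yap+/- and 6.41 in Yap+/+, and Reg1 read 4.05 in Yap+/- and 5.82 in Yap+/+. The part of these cell types in the transporter values was not tested.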

How the data were processed

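Total liver RNA was labelled with biotin from the 3-prime end and hybridised to 1 array per pooled genotype, per the labels' protocols. The authors deposited log2 values per probe set, made with RMA and Partek 6.5, per the submitters' processing notes. Settings, scanner files, background signals and detection calls were not used here. There were 45101 probe sets, with values between 2.49 and 15.2, and once sorted, its columns lay within 0.047 of each other, which quantile normalisation would give, so a difference in total RNA would largely be removed. The number of arrays limits the precision.

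Names came from the platform annotation, in which 34945 probe sets had exactly 1 symbol, 932 had several, 9160 had none and 64 were array controls. Lists were matched by current or older symbol. Promoter windows came from RefSeq (GRCm38.p6). Yap+/+ values were subtracted from Yap+/- values on the log2 scale, and differences were counted at 1.5-fold with no test and no p-value. The members, lists, threshold and alternatives were chosen with earlier results of these data known. Named are every measured member, and up to 2 of the largest differences each way of the other lists, with others named singly chosen after their values were seen. Protein sequences, planned for a few members, were not used here. Counting was tested on simulated data. Other settings tried were a minimum of 7 or none, averaging a gene's probe sets, only probe sets without a letter suffix, median centring, lowess, quantile normalisation, 64 added on the linear scale, and thresholds of 0.32 on the log2 scale and of 2-fold. The software was Python 3.11.15 with statsmodels 0.14.6, pandas 2.3.3, numpy 2.4.6 and matplotlib 3.10.9.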

Additional observations from a re-analysis of the deposited data

How the results depend on the processing

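Slc3a1 remained past 1.5-fold in the 4 alternatives that could alter its value (median centring, lowess, quantile normalisation and 64 added), between 0.67 (64 added) and 0.79 (median centred). The 4 filter and probe set alternatives could not alter it, since it has 1 probe set, and in all 8 no other transporter passed 1.5-fold. At a threshold of 0.32 on the log2 scale 2 transporters were higher in Yap+/-, and at 2-fold 0 were. The median difference over the transporters ran between 0.0016, without Slc3a1, and 0.026, at a minimum of 7. Of 176 recomputed differences of single transporters, 70 were identical, most of them by construction, 104 moved by at most 0.17, the disagreement between probe sets, and 2 moved by more, those of Slc38a2 (-0.08) and Slc6a8 (0.08) with the mean of all probe sets. The sign turned in 6 of the 176, for Slc38a2, Slc38a6, Slc7a2 and Slc3a2. The median of the GCN2 and ATF4 response ran between 0.12 and 0.18, its count at least 1.5-fold higher was 2 with 64 added, at a minimum of 7 and with the mean of all probe sets, and with 64 added 0 were at least 1.5-fold lower. No paired analysis was possible because each genotype has 1 array, and no replicate could be left out. With 1 pool per genotype, differences between the pools cannot be told apart from differences between any 2 pools of mice, and readings below the minimum do not separate signal from background.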
